A study of Mus musculus with 36 samples.

Results

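The genes described here carry the response to stress of the endoplasmic reticulum (ER) and the integrated stress response, measured in mouse macrophages before and after lipopolysaccharide (LPS). The set held 35 genes, chosen by their known function but with earlier results of these data known. All 35 were found among the 54232 gene identifiers in the files. After a filter on low counts 34 of the 35 were tested, among 12957 genes in all. The remaining member, Derl3, a derlin of the ER membrane, had between 0 and 9 counts per library and at most 0.677 CPM (counts per unit of library size, scaled to a common total).

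RNA from bone marrow-derived macrophages (BMDM) was sequenced in 36 libraries. BMDM are macrophages grown in culture from bone marrow progenitors, here over 5 days with 20 ng/mL of the growth factor M-CSF. The 6 groups of 6 libraries crossed a genotype label with a treatment: the libraries labelled NOS1 KO without LPS (control), with 100 ng/mL LPS for 2 h and with LPS for 8 h, and the libraries labelled WT at the same 3 stages. NOS1 is neuronal nitric oxide synthase, and LPS is a bacterial cell wall component that activates macrophages through the receptor TLR4. The labels give the wild-type strain as C65BL6 and name no KO allele, no sex or age and no animal or culture of origin, so the p-values below measure the spread between libraries, which may be partly technical. Cells of all groups were grown with M-CSF.

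The targeted gene went against the genotype labels. Nos1 had 10 to 83 counts per library in the libraries labelled KO, against 0 to 8 in those labelled WT. In controls the mean level was 4.16 ± 1.04 CPM (SD over the 6 libraries labelled KO), against 0.0650 ± 0.0988 CPM over the 6 labelled WT. The groups are therefore called by their labels throughout, and KO and WT below mean the libraries so labelled. Library totals lay between 8953489 and 18482551 counts. The 36 libraries also fell into 2 sets of 18, with 3 libraries of each group in each, along the first principal component (34.6% of the variance within groups). The labels name no batch, so the sets are called A and B here. Summed macrophage markers stood at 12911 to 22743 CPM, and Lyz2 alone at 7584 to 14381 CPM. Adgre1, Csf1r and Cd68 stood at 494.6 CPM or more in every library. The other macrophage markers were lower in some libraries, down to 52.5 CPM for Fcgr1 and 25.1 CPM for Mertk. Cx3cr1 was low in all, at 0.264 to 19.4 CPM. Skeletal muscle markers summed to over 100 CPM in 4 libraries, 2 of WT at 2 h and 2 of WT at 8 h, and reached 4730 CPM in 1 of the WT 8 h libraries. The plasma cell genes Jchain, Mzb1 and Tnfrsf17 were at or below 0.471 CPM in every library. On the same plasma and B cell list, Sdc1 stood at 12.6 to 73.6 CPM and Ighm at 1.93 to 46.0 CPM.

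Proteins that enter the ER are folded there by chaperones and disulfide isomerases, and misfolded ones are returned to the cytosol for degradation, a route called ER-associated degradation (ERAD). When unfolded proteins build up, the membrane sensors IRE1, PERK and ATF6 start the unfolded protein response. IRE1 splices the Xbp1 mRNA, ATF6 is cut to a transcription factor, and PERK phosphorylates the translation factor eIF2α. That phosphorylation, which other kinases also set under amino acid shortage or viral RNA, slows translation but favours that of ATF4, and ATF4 and CHOP then induce genes of amino acid supply, redox balance and feedback. Macrophages under LPS enlarge their secretory output, and parts of this response are known to be engaged through Toll-like receptors. Gene counts measure neither Xbp1 splicing nor ATF4 translation nor eIF2α phosphorylation.

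Promoters of the members were searched for the elements through which these factors are known to act, because the members that carry them did not all respond alike. RefSeq windows (GRCm38.p6, the mm10 build), 250 bases before to 50 after each start, were at hand for 31 of the 35 members. The ER stress response element (ERSE), which binds ATF6 with NF-Y, was searched as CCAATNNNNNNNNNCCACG on both strands. It was found in windows of 9 of the 31 members (29.0%), against 0.137% of the 27025 genes with a window. Those members were Hspa5, Hsp90b1, Calr, Canx, Pdia6, Dnajc3, Creld2, Syvn1 and Derl3. The stretches below cover the matches of the 8 that were tested, read along the gene 5′ to 3′, with capitals for the match (a match on the opposite strand reads CGTGG first and ATTGG last).
Hspa5, chr2:34772010-34772058, plus strand: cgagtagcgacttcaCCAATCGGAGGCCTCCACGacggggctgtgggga
Syvn1, chr19:6046517-6046565, plus strand: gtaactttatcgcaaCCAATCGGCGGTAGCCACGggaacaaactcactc
Dnajc3, chr14:118937812-118937860, plus strand: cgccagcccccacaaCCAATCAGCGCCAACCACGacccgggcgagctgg
Canx, chr11:50325785-50325833, minus strand: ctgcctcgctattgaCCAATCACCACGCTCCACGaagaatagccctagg
Calr, chr8:84847060-84847108, minus strand: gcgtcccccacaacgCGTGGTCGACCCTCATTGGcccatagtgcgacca
Pdia6, chr12:17266476-17266524, plus strand: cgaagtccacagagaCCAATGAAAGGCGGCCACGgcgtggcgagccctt
Creld2, chr15:88819505-88819553, plus strand: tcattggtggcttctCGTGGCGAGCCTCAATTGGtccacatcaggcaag
Hsp90b1, chr10:86705623-86705671, minus strand: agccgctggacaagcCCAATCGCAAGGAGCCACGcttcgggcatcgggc
Hsp90b1, chr10:86705518-86705566, minus strand: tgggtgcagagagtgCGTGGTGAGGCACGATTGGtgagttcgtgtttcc
Of these 8 genes, Hspa5 and Syvn1 rose, Dnajc3 fell and the other 5 passed no test at 8 h in either label, relative to the scaling used here (edgeR, adjusted p under 0.05). The median log2 fold change of the 8 was 0.06 in KO and 0.01 in WT at 8 h. Of the 16 tested genes with the ERSE letters, members included, 3 rose and 2 fell in each label at 8 h. Among all tested genes 34.9% rose and 37.1% fell in KO at 8 h, and 34.2% rose and 37% fell in WT.

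Elements of the ATF4 arm were searched in the same windows. The C/EBP-ATF response element (CARE), through which ATF4 acts, was searched as TGATGNAA on both strands and found in 4 of the 31 members (12.9%), against 4.51% of all genes with a window. Those 4 were Herpud1, Trib3, Asns and Chac1. The second ERSE form, ERSE-II, searched as ATTGG, any 1 base and then CCACG, was found in Dnajb11 and Herpud1, so that Herpud1 held letters of both kinds. These were 2 of the 31 members (6.5%), against 0.044% of all genes with a window. The core of the unfolded protein response element, searched as TGACGTG, was found in Hspa5 alone (3.2% of the 31), against 2.22% of all genes with a window. The stretches of Herpud1, Asns and Chac1 are given with the matches in capitals (in Herpud1 the CARE letters come first, on the opposite strand, and the ERSE-II letters last).
Herpud1, chr8:94386302-94386402, plus strand: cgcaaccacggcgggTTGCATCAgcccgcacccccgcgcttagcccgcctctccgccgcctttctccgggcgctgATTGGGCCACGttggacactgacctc
Asns, chr6:7693210-7693247, minus strand: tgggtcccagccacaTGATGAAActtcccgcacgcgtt
Chac1, chr2:119351034-119351071, plus strand: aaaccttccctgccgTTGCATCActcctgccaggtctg
These are matches of letters in a fixed window, not measured binding sites.

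After 2 h of LPS most members passed no test, and the same held for most tested genes. In KO, 8 of the 34 tested members rose and 2 fell, where 18.9% of all tested genes rose and 16.4% fell. In WT, 6 members rose and 2 fell, where 20.3% of all tested genes rose and 17.6% fell (edgeR's quasi-likelihood test over all 12957 genes, Benjamini-Hochberg adjusted p under 0.05). After 8 h, 6 members rose and 8 fell in KO, beside 34.9% and 37.1% of all tested genes, and 6 rose and 6 fell in WT, beside 34.2% and 37% of all tested genes. The median log2 fold change of the members was 0.08 in KO and 0.01 in WT at 2 h, and it was -0.01 in KO and -0.12 in WT at 8 h. The medians of all tested genes were -0.02 in both labels at 2 h and -0.06 in both at 8 h.

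These directions are relative to the TMM scaling, which places most genes near 0. Scaled by library totals alone, the median of all tested genes moved to -0.31 in KO and -0.32 in WT at 2 h and to -0.88 in KO and -0.83 in WT at 8 h. On that scale 3 members rose and 28 fell in KO at 8 h, and 3 rose and 30 fell in WT, while at 2 h 4 rose and 6 fell in KO and 4 rose and 12 fell in WT. Hspa5, Syvn1 and Ppp1r15a kept their rise at 8 h under both scalings in both labels. Dnajb11, Sel1l and Derl2 had positive values under TMM and negative ones under library totals, and Sel1l, for instance, stood at -0.25 in KO and -0.28 in WT at 8 h.

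**Figure D1:**
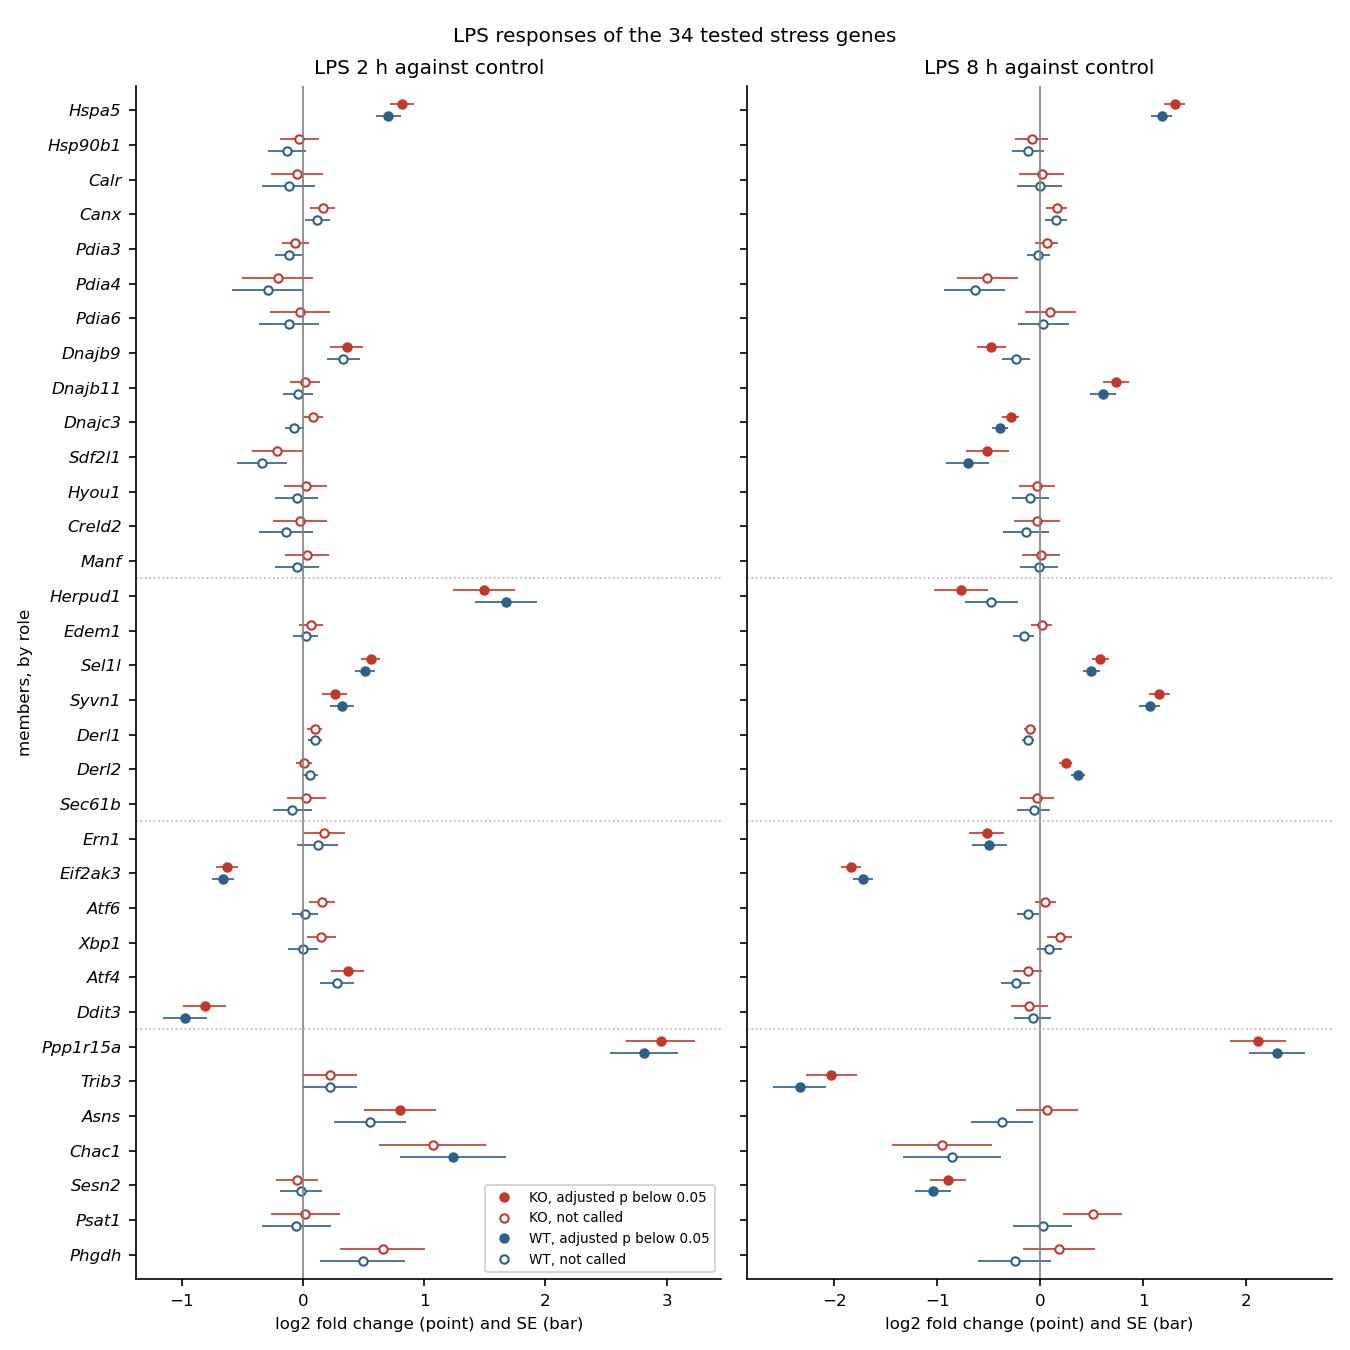
Log2 fold change of LPS against control (x axis, TMM scaling) for the 34 tested members, at 2 h on the left and 8 h on the right, KO in red and WT in blue; bars are standard errors and filled symbols passed the adjusted p of 0.05. Ppp1r15a stands highest at both times, and at 8 h Trib3 and Eif2ak3 stand lowest in both labels.

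By level per kilobase of exon in controls, Calr, Pdia3 and Hspa5 stood highest. Atf4 came next, at a mean of 129.3 CPM per kb in KO and 148.6 in WT, above the other folding genes. In KO controls Calr averaged 387.2 ± 68.8 CPM per kb, Pdia3 202.0 ± 16.7 and Hspa5 175.7 ± 24.0, and in WT controls they averaged 379.2 ± 29.5, 201.7 ± 12.0 and 177.8 ± 5.64 CPM per kb (SD, n = 6 each). In KO controls Pdia3 and Hspa5 differed by little more than the larger of their spreads, and in WT controls their means lay further apart than either spread. At 8 h Hspa5 averaged 434.2 ± 15.4 CPM per kb in KO and 402.9 ± 27.3 in WT, next to 390.8 ± 131.0 and 378.1 ± 106.0 for Calr, whose libraries spread widely. At the low end among tested members, Chac1 averaged 2.19 ± 0.602 and Eif2ak3 3.96 ± 0.475 CPM per kb in KO controls, and 2.42 ± 0.694 and 3.99 ± 0.384 in WT controls.

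Among the 14 lumenal chaperones and folding enzymes, 2 rose and none fell in KO at 2 h, and 1 rose and none fell in WT. At 8 h 2 rose and 3 fell in KO, and 2 rose and 2 fell in WT. Their median log2 fold change at 8 h was -0.01 in KO and -0.06 in WT, against -0.06 for all tested genes in each label. Among all tested genes 18.9% rose and 16.4% fell in KO at 2 h, and 20.3% rose and 17.6% fell in WT. The shares at 8 h were 34.9% and 37.1% in KO and 34.2% and 37% in WT. Hspa5 (ENSMUSG00000026864, chromosome 2, 34771970 to 34777547, plus strand) encodes BiP, the main ER chaperone of the HSP70 class, which also holds the sensors inactive. Its lowest, median and highest levels in KO were 580, 776 and 834 CPM in controls, 1130, 1348 and 1483 CPM at 2 h and 1777, 1809 and 1951 CPM at 8 h. In WT they were 713, 750 and 784 CPM in controls, 782, 1305 and 1403 CPM at 2 h and 1569, 1704 and 1885 CPM at 8 h. The 3 KO groups did not overlap, and in WT the 2 h group met the controls through 1 library. The log2 fold change at 2 h was 0.82 ± 0.10 in KO (adjusted p = 2.95e-08) and 0.70 ± 0.10 in WT (adjusted p = 4.54e-07; SE, edgeR). At 8 h it was 1.30 ± 0.10 in KO and 1.18 ± 0.10 in WT (adjusted p = 1.25e-13 and 1.56e-12, edgeR).

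Dnajb11 (ERdj3), a cofactor of BiP that binds unfolded clients, rose later. Its median level in KO was 138 CPM in controls, 129 CPM at 2 h and 213 CPM at 8 h, and in WT it was 133, 131 and 200 CPM. Every 8 h library, at 183 CPM or more in KO and 179 or more in WT, stood above every control and every 2 h library of its label. Its change at 8 h on the log2 scale was 0.74 ± 0.12 in KO (edgeR, adjusted p = 3.09e-06) and 0.61 ± 0.12 in WT (adjusted p = 5.34e-05), but -0.08 in KO and -0.16 in WT when scaled by library totals. At 2 h it was 0.01 ± 0.12 in KO and -0.04 ± 0.12 in WT.

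A pair of BiP's partners fell at 8 h in both labels. Dnajc3 (p58IPK), a co-chaperone also known to restrain PERK, had a log2 fold change of -0.29 ± 0.08 in KO and -0.39 ± 0.08 in WT, and its 8 h groups did not overlap the controls of their label. Sdf2l1, which works with ERdj3, had -0.52 ± 0.21 in KO (edgeR, adjusted p = 0.0279) and -0.71 ± 0.21 in WT (adjusted p = 0.00343). Its KO groups overlapped, at 37.4 to 83.5 CPM at 8 h and 58.3 to 101.5 CPM in controls, and the KO call was lost when any of 5 of the 12 libraries was left out. Dnajb9 (ERdj4), a co-chaperone that represses IRE1, had 23.3, 27.8 and 30.9 CPM in KO controls (lowest, median, highest), 29.3, 33.7 and 44.8 CPM at 2 h and 16.0, 20.0 and 22.3 CPM at 8 h. The WT libraries had 18.2, 26.9 and 30.1 CPM in controls, 25.7, 30.02 and 42.6 CPM at 2 h and 16.2, 23.1 and 26.6 CPM at 8 h. Its medians were highest at 2 h and lowest at 8 h in both labels, and of these groups the KO 8 h libraries alone overlapped neither other stage of their label. The 2 h difference from control was 0.36 ± 0.14 in KO (edgeR, adjusted p = 0.0371, lost without any of 7 of 12 libraries) and 0.33 ± 0.14 in WT (adjusted p = 0.0521). The 8 h difference was -0.47 ± 0.14 in KO (edgeR, adjusted p = 0.00263) and -0.24 ± 0.14 in WT (adjusted p = 0.123). The test of the difference between the labels' responses is given further on.

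In the fit over all libraries the other 9 folding genes passed no test against control at either time in either label. They were Hsp90b1 (GRP94, the ER member of the HSP90 class), the lectin chaperones Calr and Canx, the disulfide isomerases Pdia3, Pdia4 and Pdia6, Hyou1 (GRP170, a nucleotide exchange factor of BiP), and Creld2 and Manf, small ER proteins induced by ER stress. Apart from Pdia4, they had log2 fold changes between -0.14 and 0.16 at 8 h in both labels. Pdia4 had the most negative values, -0.51 ± 0.30 in KO and -0.64 ± 0.30 in WT at 8 h (edgeR, adjusted p = 0.119 and 0.054). Fitted within each library set it passed in both, at -0.83 in KO and -1.06 in WT in set A and -0.34 in KO and -0.38 in WT in set B (edgeR, adjusted p of 0.000241 at most). With a term for the library set Pdia4 also passed at 8 h, at -0.58 in KO and -0.74 in WT, as did Canx, at 0.16 in KO and 0.15 in WT, though Canx was at -0.66 in KO and -0.61 in WT under library totals. Calr levels at 8 h ran from 686 to 1503 CPM in KO and from 718 to 1398 CPM in WT, around controls of 838 to 1263 CPM in KO and 1017 to 1260 CPM in WT, so the spread within a group exceeded any shift between medians. At 8 h that spread followed the library sets. From control to 8 h the Calr mean in set A went from 997 to 790 CPM in KO and from 1116 to 816 CPM in WT. In set B it went from 1233.5 to 1461 CPM in KO and from 1068 to 1362 CPM in WT. The median 8 h change of the 14 folding genes was -0.15 in KO and -0.25 in WT in set A. In set B that median was 0.10 in KO and 0.13 in WT.

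**Figure D2:**
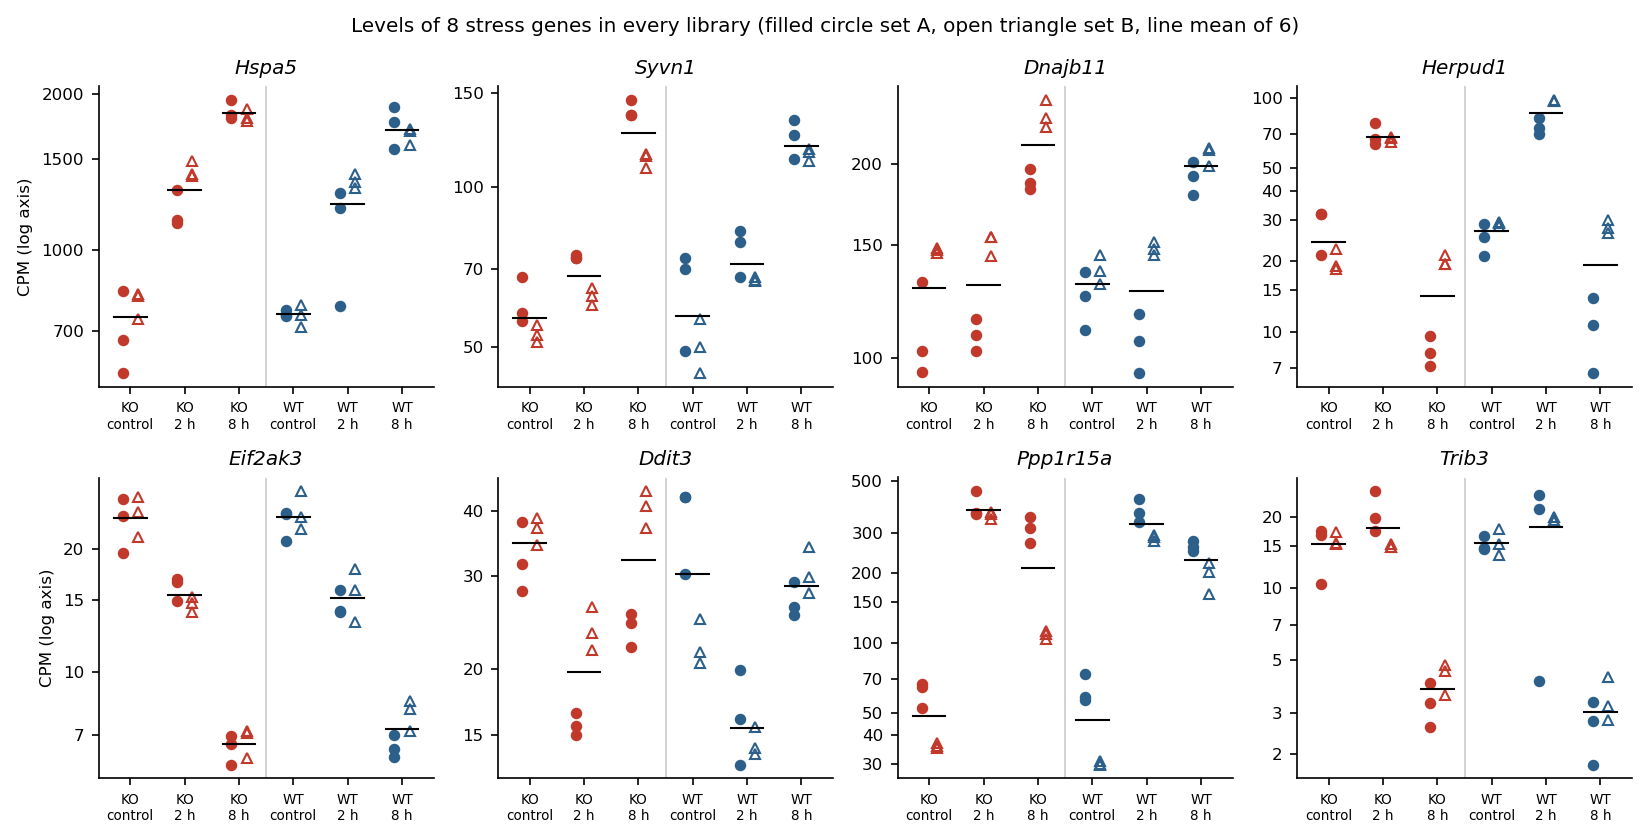
Level in CPM (log axis) of 8 members in each of the 36 libraries, by group; filled circles are libraries of set A, open triangles of set B, and lines are means of 6. Hspa5 climbs from control to 8 h, Herpud1 and Ppp1r15a peak at 2 h, Eif2ak3 declines at each step, and the KO 8 h libraries for Ppp1r15a split by set.

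Genes of ERAD and translocation, 8 in all with 7 tested, gave 3 rises and no fall at 2 h in each label. At 8 h 3 rose and 1 fell in KO, and 3 rose and none fell in WT. Their median log2 fold change at 8 h was 0.02 in KO and -0.07 in WT, against -0.06 for all tested genes in each label. Among all tested genes 18.9% rose and 16.4% fell in KO at 2 h, and 20.3% rose and 17.6% fell in WT. The shares at 8 h were 34.9% and 37.1% in KO and 34.2% and 37% in WT. Syvn1 (ENSMUSG00000024807, chromosome 19, 6046576 to 6053712, plus strand) encodes HRD1, the ubiquitin ligase of the main ERAD channel. In KO it had 51.1, 55.5 and 67.7 CPM in controls (lowest, median, highest), 59.8, 69.0 and 74.3 CPM at 2 h and 108.5, 125.7 and 145.7 CPM at 8 h. WT libraries had 44.6, 53.1 and 73.4 CPM in controls, 66.5, 67.6 and 82.5 CPM at 2 h and 111.8, 116.9 and 133.4 CPM at 8 h. The 8 h groups stood clear of both earlier stages, and the 2 h groups overlapped the controls. At 8 h the log2 fold change was 1.15 ± 0.10 in KO and 1.06 ± 0.10 in WT (adjusted p = 4.44e-12 and 3.35e-11, edgeR). At 2 h it was 0.26 ± 0.10 in KO (edgeR, adjusted p = 0.0437, lost without any of 8 of 12 libraries) and 0.32 ± 0.10 in WT (adjusted p = 0.0112). The KO value at 2 h was -0.04 under library totals. Syvn1 shares 91 exon bases with Mrpl49 on the opposite strand (35103 and 8750 counts over all libraries).

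Sel1l (ENSMUSG00000020964, chromosome 12), the adaptor that holds HRD1 in place, was already at its later level at 2 h. Its medians in KO were 162.5 CPM in controls, 234.0 CPM at 2 h and 245.6 CPM at 8 h, and in WT they were 168.9, 231.8 and 238.9 CPM. No 2 h or 8 h library overlapped the controls of its label. Sel1l changed by 0.56 ± 0.08 in KO and 0.52 ± 0.08 in WT at 2 h, and 0.58 ± 0.08 in KO and 0.49 ± 0.08 in WT at 8 h on the log2 scale (adjusted p = 1.09e-06, 3.7e-06, 1.23e-07 and 2.22e-06, edgeR). Derl2, a derlin of the same channel, rose by 0.25 ± 0.07 in KO and 0.37 ± 0.07 in WT at 8 h, with groups that did not overlap, though it was at -0.58 in KO and -0.40 in WT under library totals. Derl2 shares 231 exon bases with Mis12 on the opposite strand, and without strand information their reads cannot be told apart. Derl1, its paralogue, had -0.10 ± 0.06 in KO and -0.12 ± 0.06 in WT at 8 h and passed no test against control. Edem1, a lectin-like protein that hands glycoproteins to ERAD, and Sec61b, a subunit of the translocation channel, also passed none in the fit over all libraries, with log2 fold changes between -0.16 and 0.07 at either time. The 8 h values of Edem1 joined opposite movements of the library sets. In set A its mean went from 292 to 345 CPM in KO and from 300 to 329 CPM in WT. In set B it went from 405 to 360 CPM in KO and from 405 to 301 CPM in WT.

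Herpud1 (ENSMUSG00000031770, chromosome 8, 94386438 to 94395377, plus strand), a membrane protein that assembles HRD1 complexes, had a transient course. In KO it had 18.6, 22.0 and 31.8 CPM in controls (lowest, median, highest), 63.2, 67.0 and 78.4 CPM at 2 h and 7.14, 14.5 and 21.3 CPM at 8 h. In WT it had 21.2, 28.6 and 29.4 CPM in controls, 69.8, 89.4 and 98.3 CPM at 2 h and 6.64, 20.2 and 29.97 CPM at 8 h. All 2 h libraries stood above all others of their label, and the 8 h groups overlapped the controls. The log2 fold change at 2 h was 1.49 ± 0.26 in KO and 1.68 ± 0.26 in WT (adjusted p = 1.5e-05 and 1.99e-06, edgeR). At 8 h it was -0.77 ± 0.26 in KO (edgeR, adjusted p = 0.00935) and -0.48 ± 0.26 in WT (adjusted p = 0.0972). Libraries of set A and set B differed here: the 8 h value was -1.77 in KO and -1.23 in WT in set A, and -0.01 in KO and -0.02 in WT in set B.

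Between 2 h and 8 h, 5 members rose and 12 fell in KO, beside 31.5% and 33.7% of all tested genes. In WT 5 rose and 11 fell, beside 30% and 32.7% of all tested genes. The 5 that rose, in both labels, were Hspa5, Dnajb11, Syvn1, Derl2 and Ddit3. Under library totals 1 rose and 27 fell in KO and 2 rose and 25 fell in WT, and Hspa5 stood at -0.04 in KO. The 11 that fell in both were Dnajb9, Dnajc3, Herpud1, Derl1, Ern1, Eif2ak3, Atf4, Trib3, Asns, Chac1 and Sesn2, and Ppp1r15a also fell in KO. Herpud1 had the most negative value of all members in KO, -2.26 ± 0.27, where the lowest integrated stress response target stood at -2.25. In WT Herpud1 had the most negative value outside those targets, -2.15 ± 0.26, and the lowest target stood at -2.56. Derl1 had the smallest fall, -0.20 ± 0.06 in KO and -0.22 ± 0.06 in WT.

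Of the 6 sensors and transcription factors, 1 rose and 2 fell in KO at 2 h, none rose and 2 fell in WT, and at 8 h 2 fell and none rose in each label. Their median log2 fold change at 8 h was -0.12 in KO and -0.18 in WT, against -0.06 for all tested genes. Among all tested genes 18.9% rose and 16.4% fell in KO at 2 h, and 20.3% rose and 17.6% fell in WT. The shares at 8 h were 34.9% and 37.1% in KO and 34.2% and 37% in WT. Eif2ak3 (ENSMUSG00000031668, chromosome 6, 70844515 to 70905245, plus strand), which encodes PERK, fell at both times. In KO it had 19.5, 24.4 and 26.8 CPM in controls (lowest, median, highest), 14.0, 15.1 and 16.9 CPM at 2 h and 5.93, 6.81 and 7.19 CPM at 8 h. In WT it had 20.9, 24.2 and 27.8 CPM in controls, 13.3, 14.98 and 17.9 CPM at 2 h and 6.20, 7.10 and 8.48 CPM at 8 h. The 3 stages did not overlap in either label. The log2 fold change was -0.63 ± 0.09 in KO and -0.66 ± 0.09 in WT at 2 h, and -1.84 ± 0.10 in KO and -1.72 ± 0.10 in WT at 8 h (adjusted p = 6.67e-07, 2.24e-07, 3.16e-18 and 1.63e-17, edgeR). In bulk RNA such as this, fewer cells of a type and less RNA per cell cannot be told apart.

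Ern1, which encodes IRE1, fell at 8 h by 0.52 ± 0.17 in KO and 0.50 ± 0.17 in WT on the log2 scale (adjusted p = 0.00737 and 0.0108, edgeR). Its 8 h libraries lay at 26.3 to 38.1 CPM in KO and 29.5 to 32.1 CPM in WT, and its controls at 33.6 to 56.4 CPM in KO and 28.3 to 54.4 CPM in WT, so the groups overlapped. The fall was larger in set B, where the means went from 53.9 to 30.9 CPM in KO and from 51.3 to 31.1 CPM in WT. In set A the Ern1 means went from 36.5 to 32.1 CPM in KO and from 35.6 to 30.5 CPM in WT. At 2 h the pooled values of 0.18 ± 0.17 in KO and 0.12 ± 0.17 in WT joined opposite ones: 0.76 in KO and 0.67 in WT in set A, and -0.42 in KO and -0.43 in WT in set B. In the fit over all libraries Atf6, the third sensor, and Xbp1, the transcription factor spliced by IRE1, passed no test against control at either time. Atf6 stood at 0.05 ± 0.11 in KO and -0.12 ± 0.11 in WT at 8 h. The WT value joined means that moved in opposite ways, from 116.6 to 133.1 CPM in set A and from 125.6 to 89.5 CPM in set B. In KO the Atf6 means went from 121.5 to 131.5 CPM in set A and from 123.8 to 122.45 CPM in set B. Xbp1 had 98.9, 105.0 and 112.1 CPM in KO controls (lowest, median, highest), 108.7, 111.2 and 140.4 CPM at 2 h and 78.4, 126.5 and 144.5 CPM at 8 h. The WT libraries had 104.5, 107.4 and 120.5 CPM in controls, 87.7, 112.8 and 117.9 CPM at 2 h and 71.7, 124.9 and 133.8 CPM at 8 h. The 8 h groups spread both above and below the controls, and the 8 h change was 0.19 ± 0.12 in KO and 0.08 ± 0.12 in WT. That spread followed the library sets. In set B every 8 h library, at 142.5 to 144.5 CPM in KO and 125.2 to 133.8 CPM in WT, stood above every control of its label, at 98.9 to 107.4 CPM in KO and 104.5 to 107.2 CPM in WT. The 8 h change in set B was 0.48 in KO and 0.31 in WT (edgeR, adjusted p = 1.03e-11 and 2.93e-07), and in set A it was -0.16 in KO and -0.14 in WT, which passed no test. The p-values of set B rest on the small spread between its 3 libraries per group. Over all genes, 2 libraries of a group differed by a chi-square per gene of 2.1 to 9.93 in set B and 3.62 to 49.3 in set A.

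Atf4 mRNA had 244.5, 313.1 and 333.5 CPM in KO controls (lowest, median, highest), 315.2, 383.98 and 492.6 CPM at 2 h and 202.4, 283.7 and 341.1 CPM at 8 h. In WT it had 309.4, 352.6 and 378.2 CPM in controls, 285.9, 445.2 and 488.7 CPM at 2 h and 215.0, 304.6 and 352.8 CPM at 8 h. Its median was highest at 2 h in both labels, and neighbouring groups overlapped. The 2 h change was 0.37 ± 0.14 in KO (edgeR, adjusted p = 0.0369, lost without any of 5 of 12 libraries) and 0.28 ± 0.14 in WT (adjusted p = 0.116). In KO the sets gave 0.63 (A) and 0.07 (B), and in WT they gave 0.29 (A) and 0.27 (B). Ddit3 (ENSMUSG00000025408, chromosome 10, 127290774 to 127296288, plus strand), which encodes CHOP, a target of ATF4, moved the other way. In KO it had 28.2, 35.7 and 38.8 CPM in controls (lowest, median, highest), 15.02, 19.1 and 26.2 CPM at 2 h and 22.0, 31.3 and 43.6 CPM at 8 h. In WT it had 20.6, 27.6 and 42.4 CPM in controls, 13.2, 14.9 and 20.0 CPM at 2 h and 25.4, 28.6 and 34.1 CPM at 8 h. Every 2 h library stood below every control of its label, and the pooled 8 h groups overlapped the controls. The log2 fold change at 2 h was -0.81 ± 0.18 in KO and -0.98 ± 0.18 in WT (adjusted p = 0.00044 and 4.01e-05, edgeR), and at 8 h it was -0.11 ± 0.18 in KO and -0.07 ± 0.18 in WT. The fall at 2 h passed in each set, but the 8 h values differed between them, at -0.44 in KO and -0.51 in WT in set A and 0.14 in KO and 0.48 in WT in set B. In WT, set A averaged 27.0 CPM at 8 h, against 38.4 CPM in controls, and set B averaged 30.7 CPM at 8 h, against 22.3 CPM in controls. Ddit3 shares 68 exon bases with Mars on the opposite strand, which had more counts than Ddit3 itself.

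Of the 7 targets of the integrated stress response, 2 rose and none fell in each label at 2 h, and 1 rose and 2 fell in each label at 8 h. Their median log2 fold change was 0.66 in KO and 0.49 in WT at 2 h, and 0.07 in KO and -0.37 in WT at 8 h. These medians joined unlike values of the 2 library sets. At 2 h set A gave 0.97 in KO and 0.44 in WT, and set B -0.02 in KO and 0.34 in WT. At 8 h set A gave 0.69 in KO and 0.20 in WT, and set B -0.78 in KO and -1.04 in WT. Among all tested genes 18.9% rose and 16.4% fell in KO at 2 h, and 20.3% rose and 17.6% fell in WT. The shares at 8 h were 34.9% and 37.1% in KO and 34.2% and 37% in WT. Ppp1r15a (ENSMUSG00000040435, chromosome 7, 45522916 to 45526268, minus strand) encodes GADD34, which brings a phosphatase to eIF2α and so reverses the PERK signal. In KO it had 35.2, 44.7 and 66.3 CPM in controls (lowest, median, highest), 344, 362.96 and 453 CPM at 2 h and 104, 191 and 350 CPM at 8 h. In WT it had 29.8, 43.8 and 73.6 CPM in controls, 277, 313 and 418 CPM at 2 h and 163, 236 and 277 CPM at 8 h. All LPS libraries stood above all controls. Its log2 fold change was the highest of all members at both times, 2.95 ± 0.28 in KO and 2.82 ± 0.28 in WT at 2 h and 2.12 ± 0.27 in KO and 2.30 ± 0.28 in WT at 8 h (adjusted p = 1.43e-10, 3.21e-10, 2.29e-08 and 4.74e-09, edgeR). At 8 h the KO libraries split by set, with 350, 270 and 315 CPM in set A and 104, 113 and 110 CPM in set B.

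Trib3 (ENSMUSG00000032715, chromosome 2, 152337422 to 152344032, minus strand), a pseudokinase induced by ATF4 and CHOP that restrains both AKT and ATF4 itself, fell at 8 h. In KO it had 10.4, 16.1 and 17.3 CPM in controls (lowest, median, highest), 14.8, 16.3 and 25.6 CPM at 2 h and 2.61, 3.77 and 4.73 CPM at 8 h. In WT libraries the values were 13.9, 15.1 and 17.8 CPM in controls, 4.06, 19.6 and 24.6 CPM at 2 h and 1.81, 2.99 and 4.23 CPM at 8 h. The 8 h libraries stood below every control, and the lowest WT 2 h library lay with the 8 h group. The log2 fold change at 8 h was -2.03 ± 0.25 in KO and -2.34 ± 0.26 in WT (adjusted p = 7.41e-09 and 5.95e-10, edgeR), and at 2 h it was 0.22 ± 0.23 in each label. Sesn2, a leucine sensor that restrains mTORC1, also fell at 8 h, by 0.90 ± 0.17 in KO and 1.04 ± 0.17 in WT on the log2 scale, with groups that did not overlap.

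The enzyme genes of the ATF4 arm were less uniform. Asns, asparagine synthetase, had a 2 h change of 0.80 ± 0.30 in KO (edgeR, adjusted p = 0.0353, lost without any of 6 of 12 libraries) and 0.55 ± 0.30 in WT (adjusted p = 0.15). All KO 2 h libraries, at 67.5 to 103.7 CPM, stood above the KO controls at 29.5 to 57.2 CPM, whereas in WT 1 of the 2 h libraries, at 21.8 CPM, lay below the controls. Chac1, which degrades glutathione, had 1.07 ± 0.44 in KO (adjusted p = 0.0581) and 1.24 ± 0.44 in WT (edgeR, adjusted p = 0.0241, lost without any of 3 of 12 libraries) at 2 h. Without the 4 libraries that held muscle markers the WT value was 1.12 and no longer passed. In KO the mean of set A was 11.1 CPM at 2 h, against 3.13 CPM in controls, and that of set B was 4.02 CPM at 2 h, against 4.03 CPM in controls. The 2 h change was 1.84 in KO and 1.81 in WT in set A, and -0.02 in KO and 0.71 in WT in set B. Between 2 h and 8 h Chac1 fell by 2.02 ± 0.48 in KO and 2.10 ± 0.47 in WT, and Asns by 0.73 ± 0.30 in KO and 0.93 ± 0.30 in WT, on the log2 scale. Phgdh and Psat1, enzymes of serine synthesis, passed no test in any LPS comparison. With a term for the library set, Psat1 passed in KO at 8 h against control, at 0.58, and against 2 h, at 0.53, and Phgdh passed in WT from 2 h to 8 h, at -0.80. The 8 h value of Phgdh was 0.18 ± 0.35 in KO and -0.25 ± 0.35 in WT, and that of Psat1 was 0.51 ± 0.29 in KO and 0.02 ± 0.28 in WT.

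**Figure D3:**
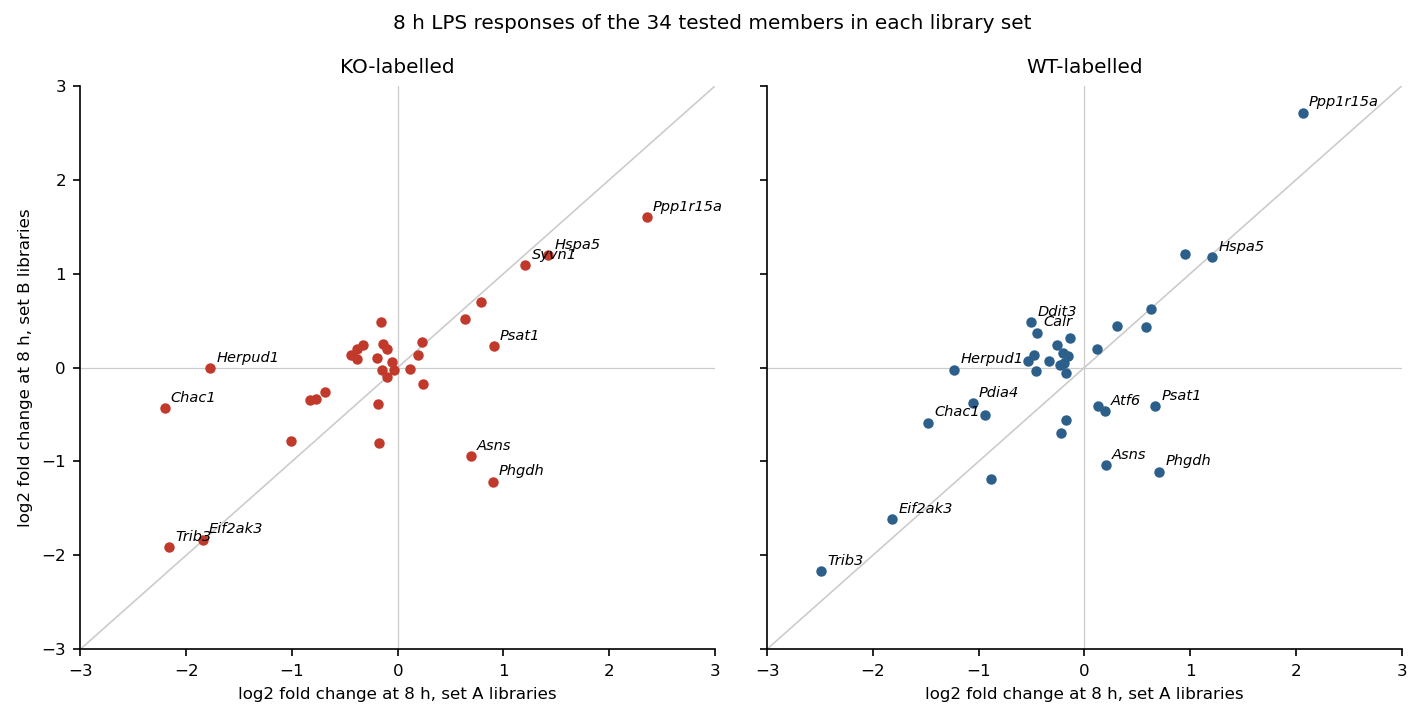
Log2 fold change at 8 h of LPS against control in set A (x axis) and in set B (y axis), 1 point per tested member, KO and WT in separate panels; the diagonal marks equal values. Phgdh, Asns, Herpud1 and Chac1 lie far from the diagonal, and Hspa5, Syvn1, Eif2ak3 and Trib3 lie near it.

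The wide errors of these enzymes came with a split between the 2 sets of libraries. Within set A the 8 h value of Phgdh was 0.90 in KO and 0.71 in WT, and within set B it was -1.22 in KO and -1.11 in WT. In KO at 8 h the set A libraries had 54.2, 52.2 and 53.0 CPM and the set B libraries 12.4, 13.3 and 12.2 CPM. Asns likewise stood at 0.69 in KO and 0.20 in WT in set A and at -0.94 in KO and -1.04 in WT in set B. Chac1 was at -2.21 in KO and -1.48 in WT in set A and at -0.43 in KO and -0.59 in WT in set B. Hspa5, Syvn1, Eif2ak3 and Trib3 moved the same way in both sets. The sum of 10 neutrophil markers also differed between the sets, with means of 63.1 CPM in set A and 118.0 CPM in set B in KO at 8 h, and 44.0 and 203.1 CPM in WT at 8 h. Of the 10, 9 had counts at 8 h in each label, the sum ran from 49.2 to 120.8 CPM in KO and from 32.6 to 207.6 CPM in WT, and the defining marker Ly6g was at most 0.214 CPM in any library. The part of these cells in the values was not tested.

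**Figure D4:**
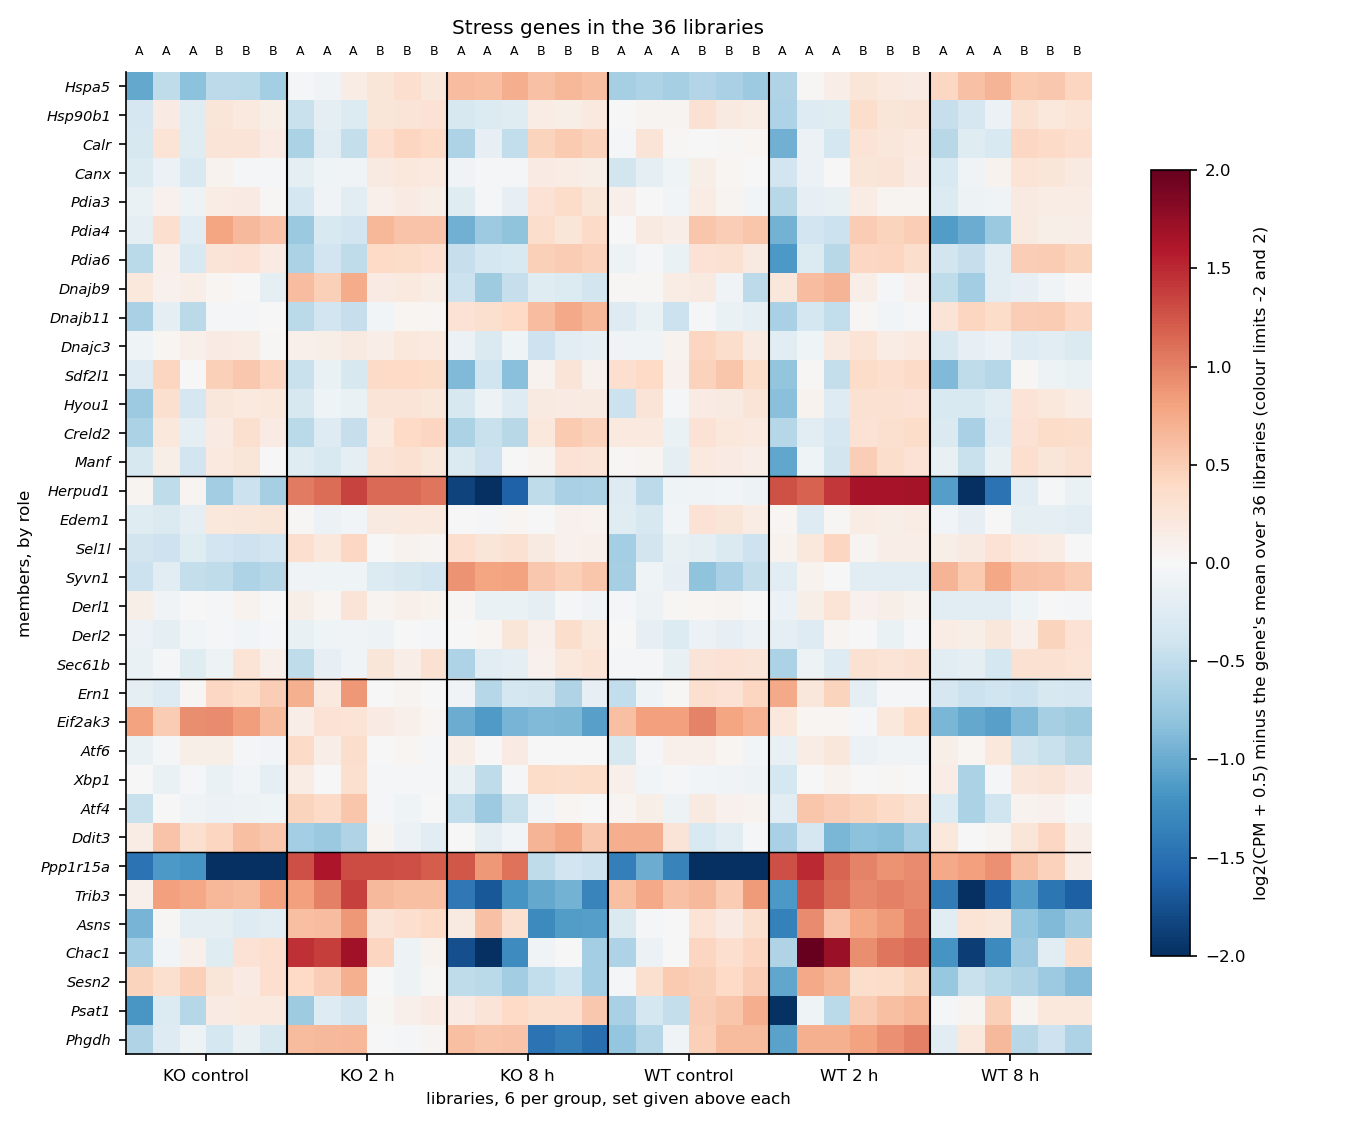
Level of each tested member in each of the 36 libraries as log2(CPM + 0.5) minus the gene's mean over all libraries, with colours limited to -2 and 2. Columns run by group and, within a group, set A before set B; Ppp1r15a and Herpud1 are raised at 2 h, and Phgdh and Asns differ between the sets within groups.

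Other genes of the same pathways, 123 listed by function and 118 tested, were read alongside. They too were chosen with earlier results of these data known. Of 20 further ERAD genes, 8 rose and none fell in KO at 2 h, and 9 rose and none fell in WT. At 8 h 15 rose and 3 fell in KO and 15 rose and 2 fell in WT, with a median log2 fold change of 0.45 in each label, against -0.06 for all tested genes. The change relative to other genes is what these counts describe, since under library totals the same medians were -0.38 in KO and -0.32 in WT. Nploc4 and Faf2, which help the segregase p97 pull proteins from the ER, stood at 0.72 ± 0.06 and 0.70 ± 0.05 in KO and at 0.73 ± 0.06 and 0.70 ± 0.05 in WT at 8 h. Of 20 further folding genes 5 rose and 8 fell in KO at 8 h, and 5 rose and 5 fell in WT. Dnajc1, an ER co-chaperone, rose by 1.78 ± 0.10 in KO and 1.85 ± 0.10 in WT, and Ero1lb, an oxidase of the disulfide relay, fell by 1.14 ± 0.10 in KO and 0.99 ± 0.10 in WT. Of 21 tested translocation and secretion genes 11 rose and 7 fell in KO at 8 h, and 12 rose and 5 fell in WT. Under library totals 3 of those 21 rose and 17 fell in KO and 2 rose and 15 fell in WT. The list held Sec23b, a coat protein of vesicles leaving the ER, at 1.82 ± 0.10 in KO and 1.65 ± 0.10 in WT. Beside these lists, 18.9% of all tested genes rose and 16.4% fell in KO at 2 h, and 20.3% and 17.6% in WT. The shares at 8 h were 34.9% and 37.1% in KO and 34.2% and 37% in WT.

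Further sensors and transducers, 22 in number, gave 9 rises and 6 falls in KO and 9 rises and 7 falls in WT at 8 h. Among the eIF2α kinases Eif2ak2 (PKR, which senses double-stranded RNA) rose by 2.85 ± 0.26 in KO and 3.30 ± 0.26 in WT at 8 h, while Eif2ak4 (GCN2, which senses uncharged tRNA) fell by 1.34 ± 0.11 in KO and 1.35 ± 0.11 in WT, beside the fall of Eif2ak3 given above. Of 24 tested further targets of ATF4 and CHOP, 9 rose and 2 fell in KO at 2 h and 9 rose and 1 fell in WT, whereas at 8 h 7 rose and 10 fell in KO and 6 rose and 11 fell in WT. Their median log2 fold change was 0.38 in KO and 0.32 in WT at 2 h, and -0.49 in KO and -0.48 in WT at 8 h. In KO at 8 h the median was 0.15 in set A (8 higher, 9 lower) and -0.69 in set B (7 higher, 13 lower), and the WT sets gave -0.32 (A) and -0.68 (B). Slc7a11, the cystine importer, rose by 5.07 ± 0.42 in KO and 5.31 ± 0.42 in WT at 2 h, and Gadd45a, a growth arrest gene, fell by 1.78 ± 0.30 in KO and 1.46 ± 0.30 in WT at 8 h. Of 12 aminoacyl tRNA synthetases 5 rose and none fell in KO at 2 h, 2 rose and none fell in WT, and at 8 h 2 rose and 8 fell in KO and 1 rose and 9 fell in WT. Iars fell by 1.52 ± 0.19 in KO and 1.44 ± 0.19 in WT at 8 h, and Wars, which interferons are known to induce, rose by 2.86 ± 0.18 in KO and 2.62 ± 0.18 in WT. Beside these lists, 18.9% of all tested genes rose and 16.4% fell in KO at 2 h, and 20.3% and 17.6% in WT. The shares at 8 h were 34.9% and 37.1% in KO and 34.2% and 37% in WT.

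**Figure D5:**
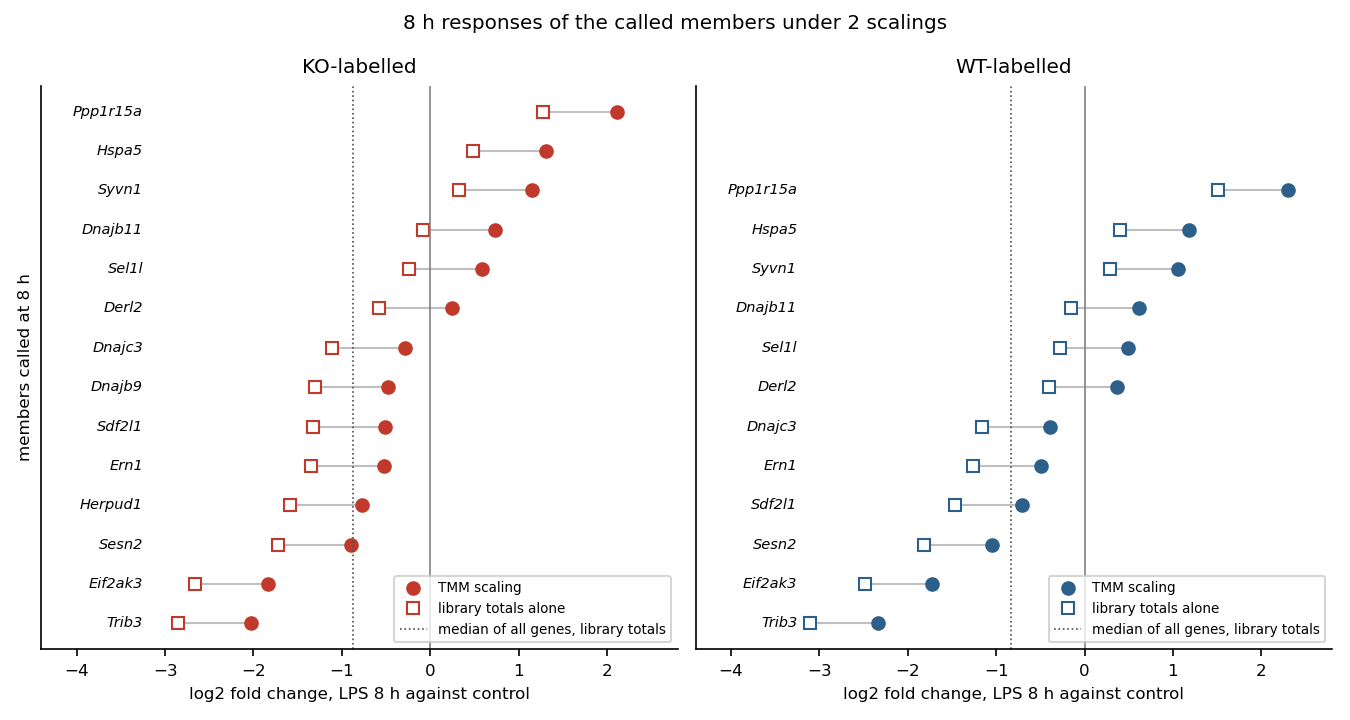
Log2 fold change at 8 h of the called members under TMM and under library totals alone, KO and WT in separate panels; the dotted line marks the median of all genes under library totals, -0.88 in KO and -0.83 in WT. Hspa5, Syvn1 and Ppp1r15a stay above 0 on both scales, and Dnajb11, Sel1l and Derl2 cross 0.

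The comparison of the genotype labels called none of the 34 members at any stage. In controls 0.123% of all tested genes were called between KO and WT, at 2 h 0.0232% and at 8 h 0.1%, and the difference in LPS response between the labels was called for 0% of genes at 2 h and 0% at 8 h (edgeR). At an unadjusted p under 0.05 edgeR called 0 of the 34 members in each of the 5 comparisons, and DESeq2 called 0 members after adjustment and 1 member at an unadjusted p under 0.05, at 2 h. DESeq2 gave no adjusted p for 11 of the 34 members in controls, so those could not be called there. The KO and WT ranges of all 34 members overlapped at all 3 stages. The share of all tested genes with such overlap was not determined, so this overlap cannot be read as particular to the members. Closest to a call were Atf4 in controls, at -0.20 ± 0.14, Ddit3 at 2 h, at 0.36 ± 0.18, and Atf6 at 8 h, at 0.19 ± 0.11 (log2 fold change of KO against WT ± SE). Log2 fold changes of KO against WT ran from -0.46 (Phgdh) to 0.19 (Ddit3) in controls, from -0.35 (Herpud1) to 0.36 (Ddit3) at 2 h and from -0.45 (Herpud1) to 0.30 (Trib3) at 8 h. The difference of the 2 h responses, KO minus WT, ran from -0.19 (Herpud1) to 0.25 (Asns), and that of the 8 h responses from -0.29 (Herpud1) to 0.49 (Psat1). For Dnajb9, Herpud1, Atf4, Asns and Chac1, called against control in 1 label alone, the difference between the labels' responses thus passed no test.

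Within set B, where 3 KO and 3 WT libraries entered each comparison, 9 of the 34 members were called between KO and WT in controls, 11 at 2 h and 13 at 8 h (edgeR). Of all genes tested in set B, 10.8% were called in controls, 10.8% at 2 h and 31.4% at 8 h, so many genes outside the set were called there too. The difference of the 8 h responses was called for 5 members, beside 16.7% of all genes tested in set B. Within set A no member was called, and of all genes tested there 0.0548% were called in controls, 0.0704% at 2 h and 0.0548% at 8 h, and 0% for the difference of the 8 h responses. Phgdh was lower in KO in set B at every stage, at -0.86 in controls, -0.91 at 2 h and -0.96 at 8 h, where set A gave 0.13, 0.33 and 0.32. Herpud1 in set B stood at -0.51, -0.54 and -0.49, and Ddit3 at 0.73, 0.71 and 0.39, at the same 3 stages. Set A gave 0.18, -0.12 and -0.37 for Herpud1 and -0.24, -0.06 and -0.17 for Ddit3. Ppp1r15a in set B was 0.26 in controls, 0.33 at 2 h and -0.85 at 8 h. The labels do not say what separates the sets, so what set B shares beyond its genotype labels cannot be told apart from the labels in these values. Libraries of a group also lay closer together in set B, with a chi-square per gene between 2 libraries of 2.1 to 9.93, against 3.62 to 49.3 in set A. The p-values of each set measure that spread between libraries, which may be partly technical.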

How the data were processed

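RNA from 36 macrophage libraries was sequenced on an Illumina NovaSeq, per the labels' protocols. The values deposited are whole read counts for each Ensembl gene, made by the authors with HTSeq on mm10, per the submitters' processing notes. Which aligner, annotation release and strand setting were used is not given in the sources used here, so reads of overlapping genes on opposite strands cannot be told apart. Symbols came from GENCODE M21, in which 54079 of 54232 identifiers were found. No line of the files lacked a gene name. The members and all lists were chosen with earlier results of these data known, and the other pathway lists and marker lists were chosen by function.

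Counts were fitted with edgeR 4.0.16 in R 4.3.3 over all 36 libraries: filterByExpr, TMM scaling, 1 mean per group, robust quasi-likelihood F tests and Benjamini-Hochberg adjustment over 12957 genes, called at 0.05. Standard errors are the log2 fold change divided by the square root of F. CPM values use TMM library sizes, and exon length is the union of annotated exons. The fit was tested on simulated data. Alternatives were DESeq2 1.42.0 (its size factors and its test), library totals alone, no filter, a minimum of 1 CPM in 6 libraries, the compared groups alone, a term for the library set, set A or set B alone, libraries left out singly, and fits without the 4 libraries with muscle markers or without the 6 libraries whose genotype label differs in wording. No 2 libraries of a group agreed within sampling noise (lowest chi-square per gene 2.1 over 90 pairs). Library totals of 8953489 to 18482551 counts limit the precision of low genes such as Chac1. Members named with values are all 34 tested; other pathway genes are named by size of change within their list. Counts of all marker lists are in CPM: besides those of the report, the highest sums were 88.3 for plasma and B cells, 313.5 for neutrophils, 223.9 for stromal cells, 125.4 for dendritic cells, 8.02 for erythroid cells and 2.06 for T and NK cells.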

Additional observations from a re-analysis of the deposited data

Results flagged for a closer look

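In 204 groups of 6 libraries (each tested member in each group), 18 values stood apart from the other 5 of their group by Dixon's ratio at its 95% critical value; chance alone marks about 1 group in 20. Replicate 1 of WT at 2 h gave 7 of the 18, all low. It had 782 CPM for Hspa5, where the other 5 lay at 1206 to 1403, 87.7 for Xbp1 (others 112.3 to 117.9) and 285.9 for Atf4 (others 413.2 to 488.7). For Trib3 it had 4.06 CPM (others 19.1 to 24.6), for Asns 21.8 (others 84.4 to 113.5), for Sesn2 13.7 (others 36.5 to 48.7) and for Phgdh 16.7 (others 58.5 to 72.1). Trib3, Asns, Sesn2 and Phgdh are targets of the integrated stress response. The same library was also the lowest of its group for Calr, Pdia3, Pdia4 and Pdia6. Over all genes it differed from the others of its group by a chi-square per gene of 29.9 to 90, where the others differed among themselves by 2.66 to 55. Its low values were thus not confined to the integrated stress response.

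Replicate 1 of the KO controls was low for Atf4, at 244.5 CPM (others 307.2 to 333.5), for Trib3, at 10.4 (others 15.3 to 17.3), and for Asns, at 29.5 (others 47.0 to 57.2). Replicate 6 of KO at 2 h was high for Herpud1, at 78.4 CPM (others 63.2 to 67.8), and for Derl1, at 138.8 (others 119.3 to 126.4). The remaining 6 values were single ones. Ppp1r15a reached 453.3 CPM in replicate 2 of KO at 2 h (others 343.8 to 367.05), and Sel1l 179.9 in replicate 6 of the KO controls (others 158.3 to 164.1). Edem1 was low, at 289.8 CPM, in replicate 2 of WT at 2 h (others 352.2 to 385.3). Among the WT controls Calr reached 1260 CPM in replicate 2 (others 1017 to 1077), Creld2 was at 27.4 in replicate 6 (others 34.4 to 37.0) and Xbp1 at 120.5 in replicate 1 (others 104.5 to 110.4).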

How the results depend on the processing

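Counts of called members depended mainly on the scaling and on the library set; the cause was not tested. With library totals alone, the members called at 2 h in KO were 4 higher and 6 lower, in WT 12 were lower, at 8 h 3 were higher and 28 lower in KO and 3 higher and 30 lower in WT, and between 2 h and 8 h 1 was higher and 27 lower in KO and 2 higher and 25 lower in WT. Changes of sign under library totals are listed only for values called on that scale or in the main fit. At 2 h they were, in KO, Dnajc3 -0.21, Syvn1 -0.038, Derl1 -0.20 and Derl2 -0.29, and in WT, Edem1 -0.28, Derl1 -0.21, Derl2 -0.25, Atf6 -0.29 and Xbp1 -0.30. At 8 h against control they were, in KO, Calr -0.80, Canx -0.66, Pdia3 -0.76, Pdia6 -0.72, Dnajb11 -0.08, Manf -0.81, Edem1 -0.81, Sel1l -0.25, Derl2 -0.58, Atf6 -0.78, Xbp1 -0.63 and Asns -0.77. In WT they were Canx -0.61, Pdia6 -0.73, Dnajb11 -0.16, Sel1l -0.28, Derl2 -0.40, Xbp1 -0.68 and Psat1 -0.75. From 2 h to 8 h they were, in KO, Hspa5 -0.04, Pdia3 -0.40, Sel1l -0.50, Derl2 -0.29 and Xbp1 -0.48. In WT they were Hsp90b1 -0.45, Canx -0.43, Pdia3 -0.36, Manf -0.43, Derl2 -0.15, Sec61b -0.44 and Xbp1 -0.38.

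Within set B alone 4 members were lower in KO and 15 higher in WT at 2 h, 13 were higher in each label and 13 lower in WT at 8 h, and 9 were higher in KO and 17 lower in WT between 2 h and 8 h. Between KO and WT it gave 9, 11 and 13 calls in controls, at 2 h and at 8 h, and 5 for the difference of the 8 h responses. Within set A alone 8 members were lower at 2 h and 11 at 8 h in WT. With the set as a term 4 were lower in WT at 2 h. That fit lost no call and added 19: Canx, Pdia4, Dnajb9, Sdf2l1, Herpud1, Derl1, Chac1 and Psat1 against control at 2 h or 8 h in 1 label or both, and Pdia4, Sdf2l1, Ppp1r15a, Psat1 and Phgdh between 2 h and 8 h. Changes of sign in set B are likewise listed only for values called there or in the main fit. At 2 h they were Calr 0.15, Pdia6 0.14 and Ern1 -0.42 in KO, and Calr 0.21, Pdia6 0.15, Dnajb11 0.12, Manf 0.21 and Ern1 -0.43 in WT. At 8 h they were Creld2 0.20, Edem1 -0.17, Asns -0.94 and Phgdh -1.22 in KO, and Calr 0.37, Pdia3 0.12, Manf 0.15, Ddit3 0.48 and Psat1 -0.41 in WT. The others were Atf4 0.028 in KO and Psat1 -0.42 in WT from 2 h to 8 h, and Asns -0.37 for KO against WT at 8 h.

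Leaving out 1 library at a time gave 4 to 9 members higher in KO at 2 h (4 without replicate 1, 2 or 6 of KO at 2 h, 5 without replicate 1, 3, 4 or 5 of the KO controls). It gave 6 to 10 lower in WT at 8 h, with 10 without replicate 5 of WT at 8 h, the library with most muscle RNA. Without the 6 libraries of differing genotype wording, 4 members were higher in KO at 2 h. DESeq2's size factors changed no call on a member, and its test added 2 calls at 2 h, Dnajb9 in WT and Chac1 in KO. Without the 4 libraries with muscle markers 5 members were higher in WT at 2 h, and Syvn1 in KO no longer passed there, at 0.26. No paired analysis was possible because the labels give the libraries no replicate numbers; those used here follow accession order and pair nothing. The depth limits Derl3, which could not be tested.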
